A study of Mus musculus with 30 samples.

Results

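Gbx2, Sox1, Pax6, Nes, Tubb3, Neurod1, Elavl3, Ncam1 and Dcc are 9 genes of the neural lineage, described here in mouse embryonic stem cells (ESC) and in the embryoid bodies (EB) grown from them. They were chosen by gene symbol: every probe set of the Affymetrix array annotated to exactly 1 of these symbols was taken. This gave 27 probe sets of 45101, and each gene was represented by its brightest probe set, averaged over the arrays. All 9 genes were among the 13250 tested. The ESC were the R-1 line, kept undifferentiated with leukaemia inhibitory factor (LIF). The EB were cell aggregates of the same line, collected at day 5 of culture with no LIF. Cells of both states were exposed to 150 ug/ml cycloheximide for 15 min, which holds ribosomes on mRNA. A cytoplasmic lysate was then run on a sucrose gradient, from which 12 fractions were taken and merged as 4 pools. Each state thus has 5 kinds of RNA, total RNA and pools 1 to 4, with 3 biological replicates of each, on 30 arrays in 10 groups. Whether pool 1 is the light or the heavy end is not given in the labels, so the pools are called by number.

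Neural tissue arises from epiblast cells that first form a neural plate of dividing progenitors, and neurons leave the cell cycle from there. Transcription factors of the homeobox, SOX and PAX families act early in this series, and proneural basic helix-loop-helix factors come later. Cytoskeletal, RNA-binding, adhesion and guidance receptor genes are then used by the neurons. Withdrawal of LIF ends the STAT3 signal that holds mouse ESC in self-renewal, and Gbx2 is known as a target of that signal in ESC as well as a gene of the early brain.

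Of the 9 genes, Gbx2 had the largest difference in level in total RNA. Neurod1 was the only one called for its place on the gradient relative to all genes after quantile normalization. The 250 bases upstream of the annotated starts of Gbx2 and Neurod1 are therefore shown. The sequences are RefSeq's on GRCm38.p6, written 5′ to 3′ along the gene, in lower case. Capitals mark CAGCTG, a form of the E-box, a sequence bound by basic helix-loop-helix factors. Other forms of the E-box were not searched or marked. The window of Gbx2 is chr1:89931177-89931426 on the minus strand, and that of Neurod1 is chr2:79456637-79456886 on the minus strand.
Gbx2: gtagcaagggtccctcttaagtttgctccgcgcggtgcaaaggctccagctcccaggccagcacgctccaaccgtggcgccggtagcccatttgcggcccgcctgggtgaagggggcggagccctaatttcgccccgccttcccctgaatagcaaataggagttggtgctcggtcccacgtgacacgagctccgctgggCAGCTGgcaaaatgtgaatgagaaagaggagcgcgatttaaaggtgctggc
Neurod1: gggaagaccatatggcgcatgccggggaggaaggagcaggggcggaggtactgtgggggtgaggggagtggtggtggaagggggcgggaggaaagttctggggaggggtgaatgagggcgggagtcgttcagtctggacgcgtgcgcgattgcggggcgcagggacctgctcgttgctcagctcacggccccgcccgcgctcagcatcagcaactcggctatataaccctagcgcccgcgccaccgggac
The Gbx2 window had 61.6% G and C with 18 CpG dinucleotides, and that of Neurod1 had 67.6% with 22. The median of 32851 such windows was 52.4% with 6 CpG. In the Gbx2 window CAGCTG began 51 bases upstream of the start. The letters searched on both strands were TTCNNNGAA (the STAT motif), CAGCTG, ATTTGCAT (the octamer) and TATAAA (the TATA box), which were in 7.02%, 13.0%, 1.6% and 12.4% of all windows. 7 of the 9 genes had an entry, in 8 windows. CAGCTG was in the windows of Gbx2 and Elavl3, TATAAA in that of Elavl3, and TTCNNNGAA and ATTTGCAT in none of the 8. Only these letters were searched, so a window with no match may hold another form of the motif. A match is a run of letters in the window and no evidence of binding.

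Whether a gene could be read at all was settled first. The background level of an array was the 95th percentile of 145 probe sets for olfactory, vomeronasal and trace amine receptors, keratin-associated proteins and beta-defensins. A probe set above it on none of the 3 arrays of a group is called near the array floor there. Only the representing probe sets of Tubb3 and Neurod1 were above background on all 30 arrays. Those of Gbx2, Nes and Elavl3 were near the floor in 0 of 10 groups, that of Ncam1 and that of Dcc in 2 groups each, that of Pax6 in 3 and that of Sox1 in 5. Of the 18 other probe sets, 2 were above background on every array of at least 1 group, and of all 27, 6 were above it on no array.

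The deposited values rose for most genes between the states, and the arrays differed in brightness and in RNA quality. The mean linear signal in total RNA was 154 ± 2.86 (SD, n = 3) in ESC and 345 ± 38.5 (SD, n = 3) in EB. Actb had a 3′ over 5′ log2 signal of 3.10 in total RNA of ESC against 2.26 in that of EB, and the group means of the pools lay between 2.30 and 4.10 in ESC and between 0.74 and 2.55 in EB. This measure of RNA quality moved with the state, and its part in the results was not tested. Each difference is given on 2 scales, that of the deposited values after adding 32 and one relative to all genes, after quantile normalization of those values. Over all 13250 genes, 78.9% rose and 0.325% fell in total RNA on the deposited scale, against 6.55% and 6.09% relative to all genes. Median centring gave another split, 1667 higher and 2718 lower, and scaling on the hybridisation controls gave 2037 and 101. All 9 pluripotency markers were above background on every array, with a summed linear signal of 28441 to 31330 in ESC total RNA and 51867 to 66559 in EB. That sum is not scaled for the brighter EB arrays. Relative to all genes, 1 of these 9 rose and 2 fell, with a median difference of -0.22. Of 10 endoderm markers, 0 were above background on all 3 arrays in ESC total RNA and 4 in EB. The same counts, ESC then EB, were 1 and 1 of 9 measured mesoderm and primitive streak markers and 1 and 0 of 5 for blood. They were 1 and 2 of 5 for heart muscle, 1 and 3 of 8 for fibroblast and 1 and 2 of 7 for neural crest. On EB pool 2, replicate 3 had the highest background of all arrays, 6.65 on the log2 scale.

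**Figure D1:**
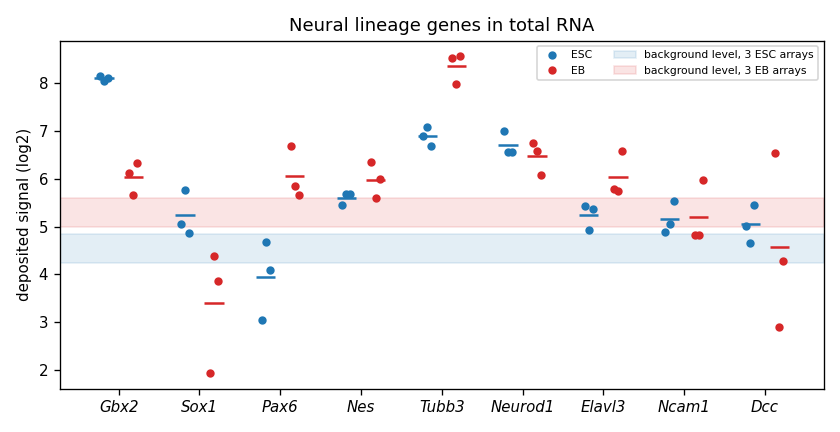
Deposited log2 signal of each gene's representing probe set in total RNA, with 1 point per array, 3 ESC (blue) and 3 EB (red), bars at the means, and bands over the range of the background levels of the 3 arrays of each state. Gbx2 lies lower in EB and Tubb3 higher with no overlap, Pax6 is above the background of its own arrays only in EB, and all 3 EB points of Sox1 lie below the EB band.

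In total RNA, the early transcription factors did not move together. Gbx2 was 8.15, 8.05 and 8.10 in ESC and 6.11, 5.65 and 6.33 in EB on the deposited log2 scale. Every ESC array stood above every EB array. Gbx2 fell by 1.65 on the log2 scale with the offset (SE 0.16, adjusted p = 2.3e-05, limma), and it fell by 2.63 relative to all genes (SE 0.12, adjusted p = 0.000186), with no overlap between the states. Of all genes, 0.325% and 6.09% fell on these scales. All 25 alternatives of the 2 fits also called it. In bulk RNA, fewer cells with a transcript and less of it per cell cannot be told apart.

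Sox1, the SOX factor of neural plate progenitors, was 5.06, 5.77 and 4.87 in ESC and 1.94, 4.38 and 3.86 in EB. The ESC arrays were all higher, and 0 of 3 EB arrays were above background. It fell by 0.66 (SE 0.20, adjusted p = 0.0114, limma), and it fell by 1.20 relative to all genes (SE 0.19, adjusted p = 0.0113). Since EB lie near the floor, these values set only how far it fell on the offset scale. On the pool arrays it was above background on 7 of 12 in ESC and on 0 of 12 in EB.

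Pax6, a paired-box factor of the eye and forebrain, went the other way on the deposited scale. It was 3.05, 4.67 and 4.10 in ESC, near the floor, and 6.69, 5.84 and 5.66 in EB, above background on all 3 arrays. It rose by 1.04 (SE 0.22, adjusted p = 0.00144, limma). The difference relative to all genes was 0.43 (SE 0.19, adjusted p = 0.170), it was -0.04 after median centring, and neither of the other scalings of the deposited values kept the call. A second Pax6 probe set rose by 0.78 on the deposited scale (adjusted p = 0.00491, limma fit over every probe set) and was above background on 2 of 3 EB total RNA arrays. The other 3 Pax6 probe sets were above background on no total RNA array.

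Nes, the intermediate filament of neural progenitors, was 5.45, 5.69 and 5.67 in ESC and 6.36, 5.59 and 5.99 in EB. The states overlapped, and the difference of 0.25 was not called (SE 0.17, adjusted p = 0.201, limma). Nes fell by 0.58 relative to all genes (SE 0.11, adjusted p = 0.0213), but 6 of 12 alternatives lost that call, with the adjusted p reaching 0.0790. A second Nes probe set was above background on 1 ESC and 0 EB total RNA arrays. It sat at the array minimum on every pool 1 array and was above background on all 3 pool 4 arrays of each state.

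Among the genes of neurons, Tubb3, the neuron-specific beta tubulin, was 6.90, 7.08 and 6.69 in ESC and 8.52, 7.99 and 8.56 in EB. All EB arrays were higher. It rose by 1.26 (SE 0.18, adjusted p = 0.000143, limma), 2.39-fold, on a scale where 78.9% of genes rose. Its difference relative to all genes was 0.03 (SE 0.13, adjusted p = 0.912), and the deposited call was lost when arrays were scaled to a common mean or on the hybridisation controls.

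Neurod1, a proneural factor that drives neuronal differentiation, was 6.99, 6.56 and 6.55 in ESC and 6.75, 6.57 and 6.08 in EB. The states overlapped on the deposited scale, with a difference of -0.17 (SE 0.18, adjusted p = 0.392, limma). Relative to all genes it fell by 1.18 (SE 0.17, adjusted p = 0.00897), and there the states did not overlap. All 12 alternatives kept that call. The second Neurod1 probe set gave -0.86 on that scale and was not called (SE 0.27, adjusted p = 0.159, limma fit over every probe set).

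Elavl3, an RNA-binding protein of neurons, was 5.43, 4.92 and 5.36 in ESC and 5.79, 5.75 and 6.59 in EB. It rose by 0.50 on the deposited scale (SE 0.19, adjusted p = 0.0342, limma). Of 13 alternatives, 7 lost the call, including those without ESC replicate 2, without ESC replicate 3 and without EB replicate 3, and the difference turned to -0.20 when arrays were scaled to a common mean and to -0.0063 when they were scaled on the hybridisation controls. The relative difference was -0.27 (SE 0.19, adjusted p = 0.393).

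The adhesion molecule Ncam1 was 4.89, 5.05 and 5.53 in ESC and 4.82, 4.83 and 5.97 in EB, with a deposited difference of 0.04 (adjusted p = 0.844, limma) and a relative one of -0.62 (SE 0.19, adjusted p = 0.0803, limma). Dcc, the netrin receptor that guides axons, was 5.02, 4.66 and 5.46 in ESC and 6.53, 2.90 and 4.27 in EB. Its EB arrays were the most scattered of the 9 genes, and the differences of -0.05 and -0.71 were not called (adjusted p = 0.896 and 0.202, limma).

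Counted over the 9 genes, 3 rose in total RNA on the deposited scale and 2 fell, beside 78.9% and 0.325% of all genes, and the states did not overlap for 5, beside 77.9%. Their median difference was 0.04, beside 0.96 for all genes. On the relative scale 4 fell and 0 rose, beside 6.09% and 6.55%, also with 0 higher at an unadjusted p under 0.05. The states did not overlap for 5 of 9, beside 36.1%. Their median was -0.62 and that of all genes 0.00.

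**Figure D2:**
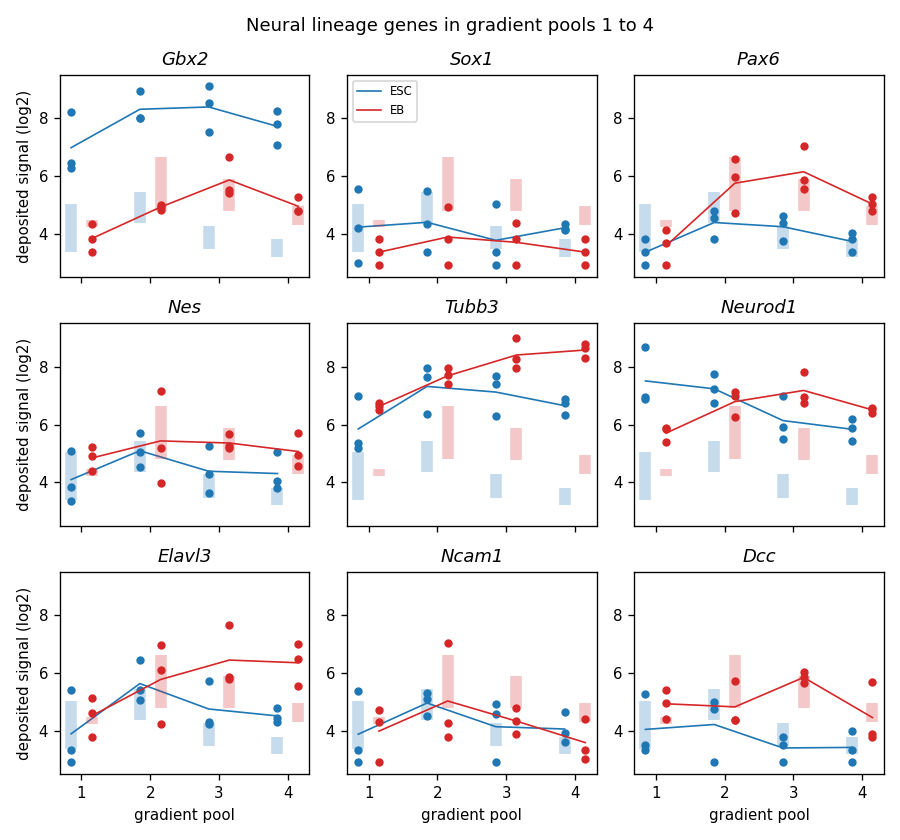
Deposited log2 signal of the representing probe sets in pools 1 to 4, with 1 point per array (3 ESC in blue, 3 EB in red), lines through the means and shaded bars over the range of the 3 background levels of each group. Gbx2 is higher in ESC in every pool, Neurod1 is highest in pool 1 in ESC and in pool 3 in EB, and most points of Sox1, Ncam1 and Dcc lie in or under the background bars.

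The fall of Gbx2 was seen in each pool. In ESC its 3 arrays read 8.21, 6.29 and 6.43 in pool 1, 8.93, 7.99 and 8.00 in pool 2, 9.10, 7.53 and 8.53 in pool 3 and 8.26, 7.80 and 7.08 in pool 4. In EB they read 3.80, 4.34 and 3.35, then 4.94, 4.99 and 4.83, then 6.67, 5.41 and 5.50, and last 5.28, 4.78 and 4.79. No EB array reached an ESC array of the same pool. In EB it was above background on 7 of 12 pool arrays, among them all 3 of pool 3. In EB pool 1 it sat at the array minimum on 2 of 3 arrays, so the size of its fall there is limited by the floor.

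The relative differences of Gbx2 were -1.78, -2.76, -3.06 and -2.86 in pools 1 to 4 (adjusted p = 0.00292, 0.00169, 8.7e-06 and 1.4e-05, limma), and the replicate block and every culture left out kept these calls. The deposited differences were -2.49, -2.01 and -1.95 in pools 2 to 4, all called. In pool 1 it differed by -1.80 and was not called, except without ESC replicate 1 (adjusted p = 0.0426). In pool 2 the call was lost with no filter on low values (adjusted p = 0.0612).

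Neurod1 fell in pools 1, 2 and 4 relative to all genes. Its ESC arrays read 8.69, 6.89 and 6.95 in pool 1, 7.74, 6.74 and 7.23 in pool 2, 6.98, 5.50 and 5.93 in pool 3 and 6.19, 5.88 and 5.44 in pool 4. Its EB arrays read 5.87, 5.41 and 5.83, then 7.13, 6.27 and 6.98, then 7.81, 6.76 and 6.97, and last 6.55, 6.41 and 6.56. The states did not overlap in pool 1, where ESC was higher, and in pool 4, where EB was higher. The relative differences were -1.37 in pool 1 (adjusted p = 0.00292, limma), -0.78 in pool 2 (adjusted p = 0.0381) and -0.54 in pool 4 (adjusted p = 0.00233), and -0.34 in pool 3 was not called. The pool 2 call was lost with the replicate block and without ESC replicate 1, 2 or 3 or EB replicate 1 or 2, with the adjusted p reaching 0.162. On the deposited scale it rose by 0.46 in pool 4 (adjusted p = 0.0220), which 4 of the 6 single cultures left out undid.

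Tubb3 was higher in EB than in ESC in pools 3 and 4 on the deposited scale. Its ESC arrays read 7.67, 6.28 and 7.42 in pool 3 and 6.88, 6.75 and 6.33 in pool 4, and its EB arrays 8.99, 7.96 and 8.27, then 8.78, 8.32 and 8.64. All EB arrays were above all ESC arrays in both pools. It rose by 1.10 in pool 3 (adjusted p = 0.0187, limma), a call lost without ESC replicate 2 or 3 and with no filter on low values, and by 1.64 in pool 4 (adjusted p = 1.9e-06). Its relative difference in pool 3 was -0.15 and was not called (adjusted p = 0.494). Its relative rise was 0.39 in pool 4 (adjusted p = 0.0156), a call lost without ESC replicate 1 or 2 or EB replicate 3.

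Of the dimmer genes, Pax6 rose by 1.03 in pool 3 and 0.51 in pool 4 on the deposited scale, and Elavl3 by 1.02 and 1.08, where 54.9% and 75.4% of all genes rose. Their relative differences were 0.18 and 0.0093 for Pax6 and 0.12 and 0.21 for Elavl3, none of them called. Without ESC replicate 2 or ESC replicate 3 the pool 3 calls of Pax6, Elavl3, Tubb3 and Dcc were all lost. Without EB replicate 1 those of Pax6 and Elavl3 were lost, without EB replicate 3 that of Dcc, and with no filter on low values that of Elavl3. Dcc rose by 1.07 in pool 3, where its EB arrays read 6.05, 5.65 and 5.86 against 3.80, 2.93 and 3.50 in ESC, which is near the floor. The relative rise was 0.52 there (adjusted p = 0.0270, limma), lost without ESC replicate 1 or 2 or EB replicate 2 or 3. In pool 4 relative to all genes, Sox1 fell by 0.62 and Ncam1 fell by 0.49, and both were near the floor on EB pool 4 arrays.

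In EB pool 2, Nes and Ncam1 stood highest on replicate 3, the array with the highest background. Nes read 5.18, 3.96 and 7.16 in EB pool 2 and Ncam1 3.80, 4.28 and 7.03. After quantile normalization replicate 3 was still the highest, with 5.78, 5.66 and 7.07 for Nes and 5.41, 5.82 and 6.93 for Ncam1. Their differences from ESC, 0.31 and 0.19 on the deposited scale and not called, became -0.23 and -0.39 without EB replicate 3. The cause was not tested.

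By pool, the 9 genes gave these counts beside the share of all genes. On the deposited scale 0 of 9 passed in pool 1, where no gene of 13250 did (limma; at an unadjusted p under 0.05 there were 361 genes, Gbx2 and Neurod1 among them). In pool 2, Gbx2 fell (0.325% of all fell, 2.08% rose). The shares of all genes in pool 2 depended on the replicate block. With it 2032 genes rose and 181 fell, against 276 and 43 without it, and Gbx2 stayed the only one of the 9 called. In pool 3, 4 rose (54.9%) and 1 fell (0.083%), and in pool 4, 4 rose (75.4%) and 1 fell (0.37%). On the relative scale 2 fell in pool 1 and 0 rose (6.53% and 6.25% of all), and 2 fell in pool 2 and 0 rose (3.78% and 3.35%). In pool 3, 1 fell (11.3%) and 1 rose (11.7%), and in pool 4, 4 fell (14.6%) and 1 rose (15.4%). The states did not overlap on the deposited scale for 2, 1, 5 and 6 of the 9 genes in pools 1 to 4, beside 5.24%, 16.7%, 64.6% and 77.4% of all genes. On the relative scale they did not overlap for 5, 2, 3 and 5, beside 30.4%, 31.1%, 39.3% and 43.4%. The counts of genes that rose were thus below the share of all genes on the deposited scale in total RNA and pool 4. In pools 2 and 3 limma gave all genes 1 standard error on the deposited scale, 0.41 in each, so the p-values there rank genes by the size of the difference alone.

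The place of a gene on the gradient was read as its pool ratio, the log2 value averaged over pools 3 and 4 less the average over pools 1 and 2 of the same culture. Each array was loaded with 2.5 ug RNA whatever a pool yielded, so ratios and shares compare array signals, not amounts of RNA. After quantile normalization, Neurod1 was the only one of the 9 whose pool ratio was called between the states relative to all genes. In ESC its ratio was -0.99, -1.04 and -1.01, and in EB -0.17, -0.32 and -0.29. The 3 EB cultures were all higher. The ratio rose by 0.75 (SE 0.15, adjusted p = 0.0113, limma), 1.68-fold, where 4.18% of all genes rose and 5.16% fell. The states did not overlap for 1 of the 9 genes, beside 31% of all genes. Of 12 alternatives, 11 called it, with differences of 0.66 to 0.81, and it was lost without ESC replicate 2 (adjusted p = 0.0707, limma). Median centring in place of quantile normalization called 5 of the 9, Neurod1 with Gbx2, Sox1, Nes and Ncam1. It called 2030 of all genes higher and 2788 lower.

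**Figure D3:**
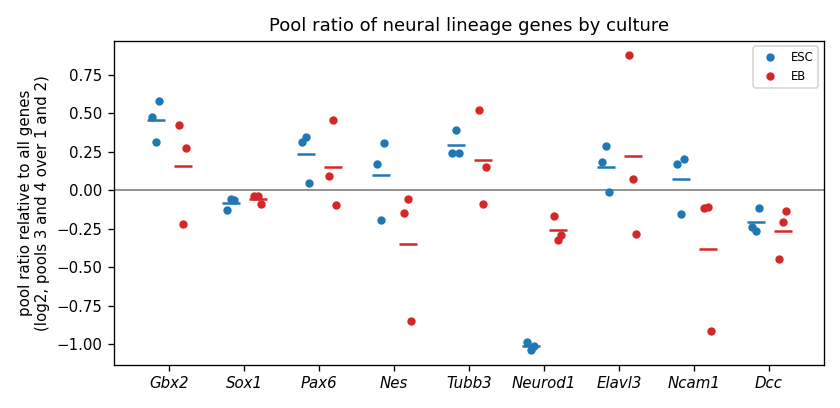
Pool ratio relative to all genes (log2, pools 3 and 4 over pools 1 and 2, quantile-normalized) of each gene by culture, 3 ESC (blue) and 3 EB (red), with bars at the means. Neurod1 lies near -1.01 in ESC and -0.26 in EB with no overlap, and the states overlap for the other 8 genes.

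The second Neurod1 probe set gave the same direction. It rose by 0.64 in the relative pool ratio (adjusted p = 0.0362, limma fit over every probe set), from -0.68 in ESC to -0.04 in EB. Both probe sets read the same arrays, so they are not separate cultures. Within ESC the relative ratio of Neurod1 was -1.01 (SE 0.10, adjusted p = 2.5e-05), kept in all 12 alternatives, and within EB it was -0.26 (SE 0.10, adjusted p = 0.0592).

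As shares of the linear signal summed over the 4 pools, pool 1 held 39.6% ± 9.19 (SD, n = 3) of Neurod1 in ESC and 13.0% ± 1.49 in EB. Pool 2 held 32.7% and 27.7%, pool 3 15.0% and 36.4%, and pool 4 12.7% and 22.9%. The typical gene had 17.3%, 37.5%, 25.2% and 18.4% in ESC and 9.19%, 27.3%, 35.6% and 24.3% in EB, as the mean over cultures of each pool's median. By this probe set Neurod1 stood apart from the typical gene in ESC pool 1 and lay closer to it in EB. The second probe set had its largest mean share in ESC in pool 2, 44.1%. Its pool 1 share was 25.9% ± 9.21 (SD, n = 3) in ESC and 17.7% ± 8.93 in EB, and the cultures of the states overlapped there.

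**Figure D4:**
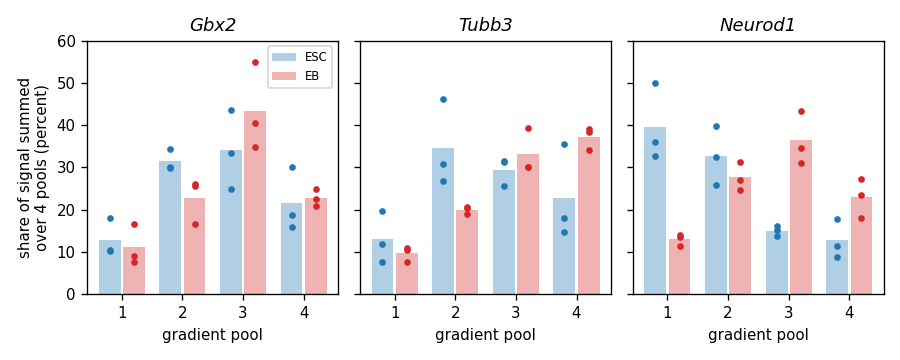
Share of each gene's linear signal, summed over the 4 pools of a culture, that fell in each pool (percent), with bars at the means of 3 cultures and 1 point per culture, ESC in blue and EB in red. Neurod1 has 39.6% in pool 1 in ESC and 13.0% in EB. Gbx2 has its largest mean share in pool 3 in both states, in ESC by little (34.0% against 31.4% in pool 2).

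On the deposited scale the pool ratio also rose for Tubb3, by 0.98 (adjusted p = 0.000111, limma), and for Elavl3, by 0.89 (adjusted p = 0.000462), beside Neurod1 with 1.48 (adjusted p = 5.3e-09). Of all genes, 64.5% rose and 0.0755% fell, and the states did not overlap for 3 of the 9 genes, beside 65.9%. limma gave every gene an SE of 0.24 there. The relative differences of Tubb3 and Elavl3 were -0.10 and 0.07. The deposited call of Elavl3 was lost without EB replicate 1, with no filter and with every probe set tested, and those of Elavl3 and Tubb3 were lost when arrays were scaled to a common mean. Scaled on the hybridisation controls, 0 of 9 and no gene of all was called on the pool ratio.

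Gbx2 had a relative ratio of 0.46 within ESC (SE 0.13, adjusted p = 0.0181, limma), lost without ESC replicate 1, 2 or 3, with an offset of 16 and with every probe set tested. Within ESC 16.5% of all genes were called higher and 16.1% lower. Within EB 0 of 9 were called (limma, 4 at an unadjusted p under 0.05), beside 23.2% higher and 19.2% lower. Gbx2 and Neurod1 differed in the sign of their ratio in ESC, 0.46 against -1.01.

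Gene patterns most like those of the 9 were sought by Pearson correlation over the 30 quantile-normalized arrays, as a description, since the arrays share their states and pools. For Gbx2 they were Socs3 (r = 0.976), Inhbb (0.974) and Klf4 (0.967). For Neurod1 they were Celf4 (0.932), Igf2 (0.916) and Pbx3 (0.911). For Sox1 the highest was E330020D12Rik (0.852). For Pax6, Nes, Tubb3, Elavl3, Ncam1 and Dcc no gene passed 0.750. Among the 9, Gbx2 and Sox1 had the highest r, 0.755, followed by Sox1 and Neurod1 with 0.667 and Nes and Ncam1 with 0.661.

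The other genes of the pathway gave the following counts in total RNA relative to all genes, where 6.55% of all genes rose and 6.09% fell. Of 22 other early neural genes tested, 4 rose and 1 fell. Otx2, the homeobox factor of the anterior neural plate, rose by 1.85 (adjusted p = 0.000744, limma), Bmi1 by 0.98, Zic5 by 0.83 and Zic2 by 0.63, while Sox11 fell by 0.83. Otx2 was also on a list of 8 primed epiblast markers, of which 3 rose and 3 fell, so its rise is not particular to neural genes. Of 28 neuronal differentiation genes 1 rose and 8 fell, among them Mapt (tau) with -1.59, Gap43 with -1.34, Stmn3 with -1.30 and Stmn2 with -1.26, and Elavl2 was the one that rose, by 0.57. The medians of these lists were -0.07 and -0.39, beside 0.00 for all genes.

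Of 22 netrin, semaphorin and slit guidance genes, to which Dcc belongs by function, 0 were called (limma, 3 at an unadjusted p under 0.05). The shares of all genes, 6.55% higher and 6.09% lower, stand beside this and the next counts. Of 10 NCAM-type adhesion genes, Prnp rose by 0.52 and Fgfr1 fell by 0.70. Of 12 genes of the REST complex, which represses neuronal genes outside neurons, 0 were called (limma, 3 at an unadjusted p under 0.05). Of 16 tubulins and intermediate filaments 1 rose and 5 fell, with Vim, a filament shared by progenitors and mesenchyme, at -2.27 and Krt8, an epithelial keratin, at -1.52, and Tubb4b the one that rose, by 0.51. The 19 genes listed for LIF-STAT3 were targets, parts of the pathway itself, and FGF signalling genes such as Spry4, Dusp6 and Etv5. Of these 19, 0 rose and 14 fell, Socs3 with -4.01, Bcl3 with -2.44 and Spry4 with -2.10. The relative difference of Gbx2 was -2.63, and its cause was not tested.

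In the relative pool ratio, where 4.18% of all genes rose and 5.16% fell, 2 of the 22 early neural genes rose and 1 fell. Otx2 rose by 0.94 and Sox2, also one of the 9 pluripotency markers, by 0.84. Notch3, a Notch receptor, fell by 0.78. Of the 28 neuronal genes 1 rose, Celf4 by 0.68, and 1 fell, the neurofilament Nefl, which fell by 0.68. Of the 19 genes listed for LIF-STAT3, 5 rose and 0 fell, the FGF signalling genes Dusp6 (0.99) and Etv5 (0.75) among them. Of the 16 tubulins and intermediate filaments 1 rose and 5 fell. Zic2, Elavl2, Tubb4b and Notch3 lie outside the naming rule and were named after their values were seen. Celf4 is an RNA-binding protein of neurons, and its relative ratio, -0.70 in ESC and -0.02 in EB, lay on the same side as that of Neurod1 in both states. Of the 22 guidance genes and of the 12 REST complex genes, 0 were called (limma, 2 and 2 at an unadjusted p under 0.05).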

How the data were processed

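Total RNA and 4 gradient pools of ESC and EB were measured on 30 one-colour Affymetrix arrays, 3 biological replicates per group. The values are log2 signals as deposited by the authors. The submitters' processing notes name MAS5 and affy, and settings and versions are not given in the sources used here. Arrays carry no read depth, and their number limits the precision. Per the platform annotation, 34945 of 45101 probe sets had 1 gene symbol, 932 several and 9160 none. 64 control probe sets stayed out of the tests.

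Here values were turned to the linear scale, 32 was added and log2 was taken, so fold changes of dim genes are understated. The lowest 40% of probe sets by mean were dropped, and the brightest probe set of each gene was kept, leaving 13250 genes. Values relative to all genes were quantile normalized over the arrays of a fit. The states were compared with limma 3.58.1 in R 4.3.3, with no replicate block, Benjamini-Hochberg adjusted over all genes, at 0.05. Only the relative fits of total RNA and of the pool ratio between states were run on simulated data, with independent noise for each gene. The deposited-scale fits and those of single pools were not.

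The genes named are the 9 genes, up to 4 genes of each list with the largest called relative difference in total RNA and up to 2 in the pool ratio, and the 3 most correlated genes of each member. The genes and lists were chosen with earlier results of these data known. Same-numbered cultures deviated together in pool 1 (r = 0.54, 0.32 and 0.34) and pool 2 (0.34, 0.14 and 0.15), where every r was over 0.1. In pool 3 r was 0.45, 0.36 and 0.096, in pool 4 0.32, 0.0068 and 0.032, in the pool ratio 0.24, 0.11 and 0.050, and in total RNA 0.016, 0.029 and 0.044. Pool arrays share a lowest value by replicate number, and 18.3% to 59.1% of their probe sets sit at it. A shared lowest value can by itself make same-numbered arrays deviate together. In the pools r therefore cannot show whether the cultures were paired. Alternatives were the block, each culture left out, no filter, and for total RNA and the pool ratio other offsets, scalings and every probe set.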

Additional observations from a re-analysis of the deposited data

Results flagged for a closer look

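Neurod1 stood out because the change between ESC and EB differed between pools 3 and 4 and pools 1 and 2. Its pool ratio relative to all genes rose by 0.75 (adjusted p = 0.0113, limma over 13250 genes), in 3 of 3 EB cultures against every ESC culture. Median centring in place of quantile normalization also called Gbx2, Sox1, Nes and Ncam1 on this ratio. The Actb 3′ over 5′ signal also moved with the state in every pool, and its part in this difference was not tested.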

How the results depend on the processing

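Of 1242 values of the 9 genes under alternatives, 1075 kept their direction and their side of the threshold, 60 lost a call, 27 gained one and 80 changed sign. In 5 of the 80 the value was called with or without the alternative. The cause was not tested. The replicate block changed the count of calls by over 1.5 times only in pool 2 relative to all genes, from 2 to 1 (Neurod1 lost); it also lost Nes in total RNA relative to all genes and gained Neurod1 in pool 3 on the deposited scale (5 to 6 called), and reversed no value of the 9 genes.

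Genes called of 9 also moved elsewhere. Scaled on the hybridisation controls gave 3 for total RNA (deposited), 0 for pool ratio (deposited). Median centring gave 7 for total RNA (relative), 5 for pool ratio (relative), 5 for pool ratio within EB (relative). No filter on low values gave 0 for pool 2 (deposited), 3 for pool 3 (deposited), 1 for pool ratio within EB (relative). Offset 16 gave 1 for pool ratio within ESC (relative). Every probe set on its own gave 1 for pool ratio within ESC (relative), 1 for pool ratio within EB (relative).

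Leaving out 1 culture at a time, the count ranged from 0 to 1 for pool 1 (deposited), from 1 to 2 for pool 2 (relative), from 1 to 6 for pool 3 (deposited), from 1 to 2 for pool 3 (relative), from 0 to 1 for pool ratio (relative), from 1 to 2 for pool ratio within ESC (relative).

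Signs turned as follows (log2). Offset 64 gave 0.00047 for Dcc total RNA (deposited). Scaled to a common mean before the offset gave -0.49 for Nes total RNA (deposited), -0.20 for Elavl3 total RNA (deposited), -0.57 for Ncam1 total RNA (deposited), -0.59 for Gbx2 pool ratio (deposited), -0.17 for Sox1 pool ratio (deposited), -0.012 for Pax6 pool ratio (deposited), -0.34 for Nes pool ratio (deposited), -0.011 for Dcc pool ratio (deposited). Scaled on the hybridisation controls gave -0.30 for Nes total RNA (deposited), -0.0063 for Elavl3 total RNA (deposited), -0.40 for Ncam1 total RNA (deposited), -0.79 for Gbx2 pool ratio (deposited), -0.26 for Sox1 pool ratio (deposited), -0.19 for Nes pool ratio (deposited). Median centring gave -0.039 for Pax6 total RNA (relative), -0.69 for Sox1 pool ratio (relative), 0.17 for Tubb3 pool ratio (relative), -0.015 for Nes pool ratio within ESC (relative), -0.050 for Elavl3 pool ratio within ESC (relative), -0.047 for Ncam1 pool ratio within ESC (relative), -0.20 for Gbx2 pool ratio within EB (relative), -0.30 for Pax6 pool ratio within EB (relative). Every probe set on its own gave 0.030 for Dcc pool ratio (relative), 0.0083 for Sox1 pool ratio within EB (relative). No filter on low values gave 0.0017 for Sox1 pool ratio within EB (relative).

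Without 1 culture, the values that changed sign ranged as follows. For total RNA (deposited): Ncam1 -0.17 to 0.15, Dcc -0.54 to 0.29. For total RNA (relative): Tubb3 -0.045 to 0.13. For pool 1 (deposited): Ncam1 -0.17 to 0.27, Elavl3 -0.0052 to 0.45, Pax6 -0.014 to 0.15. For pool 1 (relative): Ncam1 -0.057 to 0.15. For pool 2 (deposited): Sox1 -0.39 to 0.042, Tubb3 -0.10 to 0.56, Elavl3 -0.22 to 0.60, Dcc -0.0048 to 0.36, Nes -0.23 to 0.71, Ncam1 -0.39 to 0.52. For pool 2 (relative): Nes -0.47 to 0.17, Ncam1 -0.53 to 0.16, Dcc -0.15 to 0.18, Tubb3 -0.30 to 0.10. For pool 3 (deposited): Sox1 -0.19 to 0.16, Ncam1 -0.17 to 0.16. For pool 3 (relative): Elavl3 -0.063 to 0.27. For pool 4 (relative): Dcc -0.13 to 0.16, Pax6 -0.11 to 0.078. For pool ratio (deposited): Sox1 -0.016 to 0.19, Gbx2 -0.016 to 0.31, Nes -0.11 to 0.46, Ncam1 -0.35 to 0.18. For pool ratio (relative): Sox1 -0.0013 to 0.047, Elavl3 -0.24 to 0.31, Dcc -0.12 to 0.027, Tubb3 -0.26 to 0.045, Pax6 -0.24 to 0.041. For pool ratio within ESC (relative): Nes -0.011 to 0.25. For pool ratio within EB (relative): Elavl3 -0.10 to 0.45, Pax6 -0.0050 to 0.26.

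Signal over background limits Sox1, Pax6, Ncam1 and Dcc, which lie near the floor in 5, 3, 2 and 2 of 10 groups. It also limits Gbx2, Nes and Elavl3 in some groups. Only 1 of 3 arrays was above background for Gbx2 in EB pools 1 and 2, for Nes in EB pools 2 and 3, and for Elavl3 in ESC pool 1.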
